A study of Mus musculus with 816 samples.

Results

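The expression of 9 genes of extracellular purine signalling was followed across microglia that had been exposed to a panel of stimuli in culture or isolated from treated and aged mice. The 9 genes are Entpd1 and Nt5e, which encode enzymes that break down extracellular nucleotides, the nucleotide receptors P2rx4, P2rx7, P2ry6 and P2ry14, and the adenosine receptors Adora2a, Adora2b and Adora3. They were chosen by name, with earlier results of these data known but without a rule on their values. They are 9 of 45581 genes in the culture table and 9 of 29858 in the mouse table. The values come from 784 cultures and 32 mice.

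ATP that leaves damaged or active cells is a danger signal to microglia, the resident macrophages of the brain. CD39, the product of Entpd1, removes phosphates from ATP and ADP to give AMP, and CD73, the product of Nt5e, turns AMP into adenosine. P2rx4 and P2rx7 encode ATP-gated ion channels, and P2rx7 is known for its role in the release of interleukin 1 beta. P2ry6 encodes the UDP receptor linked to phagocytosis, and P2ry14 a receptor for UDP-glucose and related UDP-sugars. Adora2a and Adora2b encode adenosine receptors that raise cyclic AMP, whereas the Adora3 receptor lowers it.

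Cultures were commercial primary microglia of neonatal mice, for which no strain is given, kept in 96-well plates and exposed to single stimuli or mixtures for 4, 24 or 72 h. They came from 3 cell lots on 10 culture plates and fall into 98 groups, of which 1 holds a single culture and was not tested. Untreated cultures were labelled 24 h (n = 40) or 72 h (n = 25), and none was labelled 4 h. Mice were C57BL/6. Female mice of 2 months received 2 mg/kg LPS or PBS intraperitoneally and microglia were isolated 4 h later (n = 4 each), and naive male mice were 2 months (n = 11) or 22 months (n = 13) old. Mouse microglia were selected by CD11b, which monocytes and neutrophils also carry. The doses that matter here were 1000 µM ATP, 1 µM norepinephrine, 0.0001 µg/µl LPS for LPS_hi and 1e-05 µg/µl for LPS_lo. The other stimuli named below are P3C and IC, spelled as labelled, the interferons IFNa, IFNb and IFNg, the cytokines TNFa, GMCSF, TGFb, IL4, IL10 and IL13, prostaglandin E2 (PGE2), the calcium-binding protein s100B, and the chemokines CCL2 and CCL7.

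Values are CPM, 3′-end read counts scaled to the mapped reads of each library. The estimated depth, in megareads (M), was 1.00 to 38.2 M in cultures (median 4.67 M, 107 cultures under 2 M) and 2.36 to 7.78 M in mice. Of 10 microglia markers, 8 had a median above 5 CPM in cultures, while Sall1 and Siglech did not. The summed marker level was 857 to 14752 CPM in cultures and 46448 to 58300 CPM in PBS mice, and lists for astrocytes, neurons, neutrophils, monocytes, T cells and B cells had summed medians under 5 CPM in cultures. The summed medians were 59.0 CPM for endothelial cells, 51.9 CPM for perivascular macrophages, 40.6 CPM for oligodendrocytes and 20.3 CPM for fibroblasts. Culture 5 of the 24 h IC group correlated with its own group at 0.282 and with the P3C group at 0.786. The 9 untreated 24 h cultures of plates MG160831 and MG160901 correlated more with the IL13 group (0.381 to 0.579) than with their own (0.134 to 0.335), and 3 cultures of 1 library pool among them had the highest values with IL13 (0.538 to 0.579). Culture 24, on another plate, had 0.203 with IL13 and 0.193 with its own group. Against untreated cultures at 24 h, leaving out that IC culture or those 3 changed no call for the 9 genes, and leaving out all 9 ended the calls of P2rx7 with LPS_hi and of P2ry14 with P3C and, between untreated cultures at 72 h and 24 h, that of P2ry6.

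A gene was called in a culture comparison when its limma adjusted p, taken over all 16935 genes tested, was under 0.05 and its fold change on the log2(CPM + 1) scale was at least 1 in size. This scale understates the change of genes near 0. Every comparison with untreated cultures of a time point shares the same untreated cultures, so the comparisons are not independent. Whether wells came from separate isolations beyond the cell lot is not given, so p-values measure the spread between wells. In bulk RNA, fewer cells of a type and less RNA per cell cannot be told apart.

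The genes lie on 7 chromosomes of the mouse build GRCm38. P2rx7 (chr5:122643911-122691432, plus strand) and P2rx4 (chr5:122707544-122729738, plus strand) are neighbours. Adora2a lies at chr10:75316877-75334784, Adora2b at chr11:62248984-62266453, Entpd1 at chr19:40612366-40741602 and Nt5e at chr9:88327197-88372092, all on the plus strand, and P2ry6 at chr7:100937630-100974649 on the minus strand. P2ry14 (chr3:59113855-59153618, minus strand) lies inside Med12l on the opposite strand, whose culture group means reached at most 4.09 CPM. In mice the group medians of Med12l were 26.6 to 60.1 CPM, and its part in the P2ry14 values there was not tested. Adora3 (chr3:105870858-105908926, plus strand) overlaps Tmigd3 on the same strand, so reads of Adora3 and Tmigd3 could be split between them. RefSeq promoters, taken as 250 bases before and 50 after a transcript start, were matched for 7 of the 9 genes, with 12 starts in all. Those printed here belong to the genes that were called most often among the matched ones. Capitals mark a match to the AP-1 motif TGANTCA on either strand:
P2ry14 (chr3:59153443-59153742, minus strand): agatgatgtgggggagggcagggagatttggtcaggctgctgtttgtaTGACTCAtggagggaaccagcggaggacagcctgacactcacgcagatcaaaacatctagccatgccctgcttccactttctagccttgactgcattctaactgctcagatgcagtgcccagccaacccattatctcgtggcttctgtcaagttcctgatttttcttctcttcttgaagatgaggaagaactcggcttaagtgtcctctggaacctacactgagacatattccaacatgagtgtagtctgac
P2rx7 (chr5:122643677-122643976, plus strand): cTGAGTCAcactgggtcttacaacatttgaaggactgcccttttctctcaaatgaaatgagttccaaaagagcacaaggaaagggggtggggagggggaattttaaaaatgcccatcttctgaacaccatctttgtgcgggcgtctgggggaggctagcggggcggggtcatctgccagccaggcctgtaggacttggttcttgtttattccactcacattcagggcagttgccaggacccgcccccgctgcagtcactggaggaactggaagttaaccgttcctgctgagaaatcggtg
Adora2b (chr11:62248734-62249033, plus strand): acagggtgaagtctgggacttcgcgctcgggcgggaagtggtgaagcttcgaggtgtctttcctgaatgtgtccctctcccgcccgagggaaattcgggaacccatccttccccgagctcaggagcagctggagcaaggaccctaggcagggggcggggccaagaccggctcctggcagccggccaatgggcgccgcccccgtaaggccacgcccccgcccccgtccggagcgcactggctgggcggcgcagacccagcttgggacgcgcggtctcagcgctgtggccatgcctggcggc
Entpd1 (chr19:40612116-40612415, plus strand): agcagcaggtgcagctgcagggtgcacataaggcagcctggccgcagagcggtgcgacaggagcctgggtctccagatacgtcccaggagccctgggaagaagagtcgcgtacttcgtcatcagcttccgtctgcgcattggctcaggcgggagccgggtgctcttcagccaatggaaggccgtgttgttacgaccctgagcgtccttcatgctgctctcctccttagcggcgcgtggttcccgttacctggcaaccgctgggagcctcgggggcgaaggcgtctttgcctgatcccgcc

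The P2ry14 match starts 202 bases before the transcript start and the P2rx7 match 249 bases before it. Across all starts of the matched genes, 4 of 12 promoters held TGANTCA, those of P2ry14 (2 of its starts), Adora3 and P2rx7, against 7.81% of 32851 RefSeq promoters. None of the 12 held the interferon response core GAAANNGAA (8.56% of all promoters), the gamma-activated site TTCNNNGAA (8.3%), the cAMP response element TGACGTCA (1.79%) or an NF-kappaB site (4.51%), each searched on both strands. The 4 printed promoters therefore share no motif of this search other than the AP-1 letters of P2ry14 and P2rx7, and a match or its absence is only a description of these windows.

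All 9 genes passed the filter on low values in cultures, though at very different levels. P2rx4 had a median of 98.0 CPM over all cultures and the medians of the 97 tested groups spanned only 59.2 to 184 CPM. P2rx7 had a median of 116 CPM and group medians from 23.4 to 225 CPM, lowest in the 4 h LPS_hi group. Both channels were thus detected in every culture. Entpd1 spanned the widest range in CPM, from a group median of 1.97 CPM with TNFa + P3C + PGE2 + IFNb at 72 h to 379 CPM with IFNg at 24 h.

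P2ry6 had a median of 22.4 CPM (group medians 3.39 to 42.8) and P2ry14 of 11.6 CPM (0.418 to 134). Adora2b had a median of 1.70 CPM, with group medians from 0 to 63.9 CPM. Adora2a was listed at 0 in 430 of 784 cultures, and its highest group median was 48.1 CPM, with LPS_hi at 4 h. Adora3 was low, with a median of 1.48 CPM and a highest group median of 12.5 CPM. Nt5e was listed at 0 in 458 of 784 cultures and no group had a median above 2.61 CPM.

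The order of the groups at the upper end was not sharp. For Adora2a the 3 highest groups were LPS_hi at 4 h alone (35.6 to 92.0 CPM), with nicotine (28.5 to 72.7) and with norepinephrine (13.7 to 61.4), whose ranges overlapped. For P2ry14 they were IC at 24 h (3.18 to 189 CPM), IFNb at 72 h (98.1 to 176) and IFNb at 24 h (88.4 to 190), also with overlapping ranges. For Entpd1 they were the groups with IFNg, at 257 to 503 CPM at 24 h, 107 to 363 CPM at 72 h and 96.6 to 366 CPM with LPS_lo at 72 h.

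Against untreated cultures of the same time, 24 of 342 gene and stimulus pairs were called at 24 h, 15 higher and 9 lower, in 11 of 38 stimuli. That is 7.02% of the pairs, beside 3.05% over all genes and the same stimuli (1.16% higher and 1.89% lower). At 72 h, 38 of 288 pairs were called, 23 higher and 15 lower, in 16 of 32 stimuli, which is 13.2% beside 6.61% over all genes (2.9% higher and 3.72% lower). Over both times Adora2b was called higher with 17 of 70 stimuli and Adora2a with 9, and neither was called lower, beside 1.95% of all pairs called higher and 2.73% called lower. Entpd1 was called lower 14 times and higher 3 times, and P2ry14 higher 8 times and lower 1 time. P2rx7 was called lower 6 times, P2ry6 lower 2 times, Adora3 lower 1 time and Nt5e higher 1 time. P2rx4 was not called with any of the 70 stimuli, although with no minimum fold it passed at 24 h with IFNa, IFNb and LPS_hi and at 72 h with LPS_lo and TNFa + PGE2. With culture plate as a term, 28 pairs were called at 24 h, of which 23 were shared, and 51 at 72 h, of which 37 were shared. Because the 9 genes were chosen with earlier results known, these shares and those below are descriptions only.

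**Figure D1:**
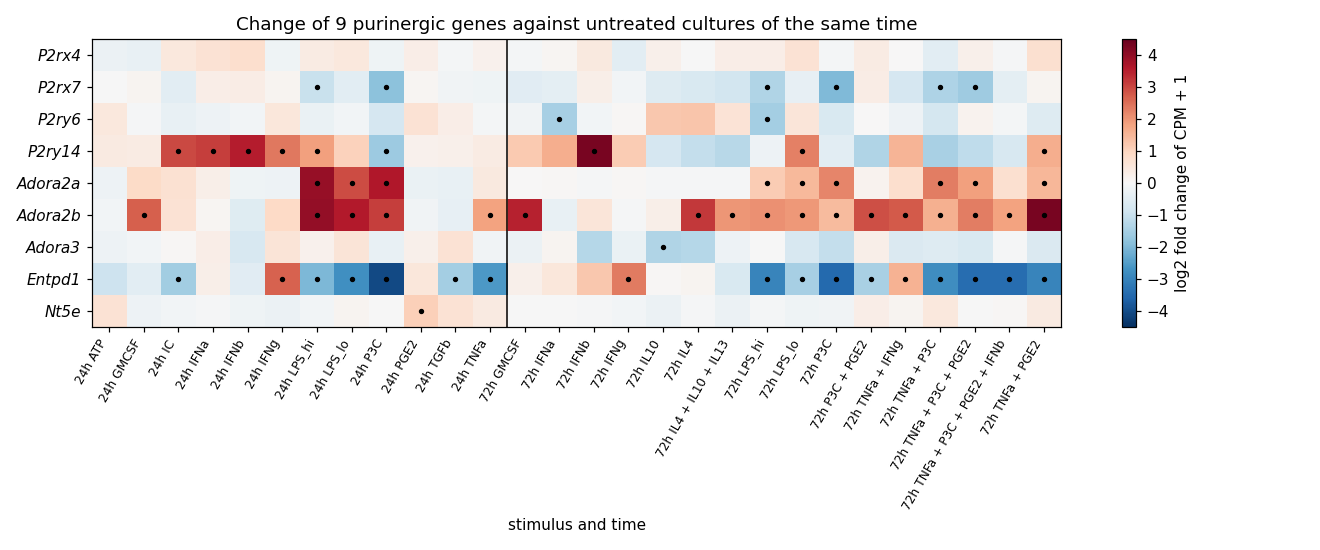
Log2 fold change of CPM + 1 for the 9 genes (rows) against untreated cultures of the same time, for 24 h ATP and for each stimulus at 24 or 72 h with at least 1 called gene (columns), with red higher, blue lower and a dot marking a called pair. Adora2a and Adora2b are red and Entpd1 is blue with LPS and P3C, P2ry14 is red with the interferons at 24 h, and P2rx4 and 24 h ATP carry no dot.

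Entpd1 fell with LPS, P3C, IC, TNFa and TGFb and rose with IFNg. In untreated 24 h cultures it ranged from 24.7 to 136 CPM with a median of 54.3. In the 6 P3C cultures it was 3.73, 10.2, 6.67, 0.653, 1.25 and 0 CPM, all below every untreated culture. The log2 fold change was -4.06 (SE 0.41, adjusted p = 1.1e-19). It was -2.02 with LPS_hi (SE 0.26, n = 18, median 11.8 CPM), -2.75 with LPS_lo (SE 0.38, n = 7, median 7.15 CPM) and -2.60 with TNFa (SE 0.38, n = 7, 2.51 to 16.5 CPM). The TNFa cultures did not overlap with the untreated ones, whereas some LPS cultures did. IC (-1.56, SE 0.36, n = 8) and TGFb (-1.54, SE 0.36, n = 8) lowered it less, to medians of 19.6 and 18.2 CPM.

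With IFNg at 24 h, the 9 cultures ranged from 257 to 503 CPM of Entpd1 with a median of 379, and the lowest of them stood above the highest untreated culture. The change was 2.66 (SE 0.34, adjusted p = 2.6e-12). IFNa (median 55.0 CPM, 0.27, SE 0.36) and IFNb (41.0 CPM, -0.50, SE 0.33) were not called. Compared directly, in 1 of 15 comparisons chosen after values were seen, IFNg cultures exceeded IFNb cultures (21.6 to 59.0 CPM) by 3.16 (SE 0.43, adjusted p = 1.1e-10, with 3.84% of all genes called). The groups did not overlap.

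At 72 h Entpd1 had a median of 70.6 CPM in untreated cultures, with a range of 3.91 to 141. It was lower with LPS_hi (median 3.37 CPM, change -2.98, SE 0.32), LPS_lo (17.3 CPM, -1.51, SE 0.34), P3C (3.10 CPM, -3.49, SE 0.42), P3C + PGE2 (30.9 CPM, -1.46, SE 0.40) and TNFa + PGE2 (3.87 CPM, -2.99, SE 0.38). TNFa + P3C, with or without PGE2 and IFNb, gave medians of 1.97 to 5.61 CPM and changes from -3.44 to -2.80. It was higher with IFNg (median 265 CPM, 2.34, SE 0.42) and with TNFa + IFNg (146 CPM, 1.55, SE 0.38). The wide untreated range at 72 h overlapped with all of these groups. Untreated Entpd1 also differed between plates at 72 h. Its medians were 81.9 CPM on MGm160930A, 110 CPM on MGm160930B, 23.6 CPM on MGm161010C and 22.1 CPM on MGm161010D. With culture plate as a term Entpd1 was called with 15 stimuli at 72 h, among them all 10 called without it.

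Nt5e stayed near the detection limit. It was called with PGE2 at 24 h alone, where the 8 cultures ranged from 0 to 5.2 CPM with a median of 1.77, beside an untreated range of 0 to 2.44. The change of 1.09 (SE 0.24, adjusted p = 0.007) fell to 0.97 with culture plate as a term, under the minimum fold, and 0.337% of all genes were called with PGE2. The groups overlapped.

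Of the ATP-gated channels, P2rx7 fell with LPS_hi and P3C and P2rx4 was not called. Untreated 24 h cultures had 38.6 to 241 CPM of P2rx7 with a median of 115. The 6 P3C cultures had 28, 21.6, 45.5, 66.6, 12.1 and 50.2 CPM, 3 of them below every untreated culture, and the change was -1.85 (SE 0.34, adjusted p = 2.2e-06). With LPS_hi the median was 74.2 CPM (10.4 to 144, n = 18), and the change of -1.0 (SE 0.22, adjusted p = 5.9e-05) lies at the minimum fold and was lost under median-ratio scaling, without cultures under 2 M reads and without the 9 untreated cultures named above, where it was -0.96. At 72 h the untreated median was 174 CPM. P2rx7 was called lower there with LPS_hi (71.7 CPM, -1.34, SE 0.27), P3C (64.9 CPM, -1.98, SE 0.36), TNFa + P3C (73.5 CPM, -1.40, SE 0.34) and TNFa + P3C + PGE2 (71.1 CPM, -1.59, SE 0.34). Summed microglia markers also moved with these stimuli. At 24 h their median was 5986 CPM untreated, 1513 CPM with LPS_hi and 3245 CPM with P3C, and their part in the fall of P2rx7 and Entpd1 was not tested.

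P2ry14 rose with every interferon at 24 h. Untreated cultures had 0.454 to 55.0 CPM with a median of 13.4. With IFNb the 10 cultures ranged from 88.4 to 190 CPM with a median of 112, all above every untreated culture, and the change was 3.54 (SE 0.50, adjusted p = 2.7e-10). IFNa gave a median of 112 CPM and a change of 3.11 (SE 0.55, n = 8), IC 134 CPM and 2.97 (SE 0.55, n = 8), and IFNg 63.3 CPM and 2.37 (SE 0.52, n = 9). These 3 groups overlapped with the untreated one. The IC group holds the culture that resembles P3C, at 3.18 CPM, while its other cultures had 53.9 to 189 CPM. Neither IFNa nor IC differed from IFNb by a called amount for any of the 9 genes.

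LPS_hi and P3C moved P2ry14 in opposite directions. LPS_hi raised it by 1.84 (SE 0.40, median 43.0 CPM, adjusted p = 4.3e-05). The 6 P3C cultures had 7.14, 6.92, 6.37, 0.326, 0 and 1.25 CPM, a change of -1.63 (SE 0.62, adjusted p = 0.0393) that was lost with no filter, under median-ratio scaling, with library pool as a term, without cultures under 2 M reads, without the 9 untreated cultures and when p-values were adjusted over all comparisons. P3C against LPS_hi, a comparison added after the values were seen, differed by -3.47 (SE 0.67, adjusted p = 1.4e-05), with 9.03% of all genes called. At 72 h P2ry14 was called with IFNb (98.1, 146, 176 and 100 CPM, against 0.240 to 69.9 untreated, 4.27, SE 0.76), with LPS_lo (median 29.2 CPM, 2.28, SE 0.51) and with TNFa + PGE2 (18.5 CPM, 1.65, SE 0.57, adjusted p = 0.0404). The last was lost with plate as a term, with library pool as a term, with no filter, at a pseudocount of 0.5 and when p-values were adjusted over all comparisons. The IFNb cultures did not overlap with the untreated ones, and all 4 lay on 1 plate. With culture plate as a term P2ry14 was called with 9 stimuli at 72 h, among them 2 of these 3. IFNa at 72 h (1.63, not called) was called with plate or library pool as a term, under median-ratio scaling and without cultures under 2 M reads. Untreated medians of P2ry14 at 72 h ranged from 1.46 CPM on plate MGm161010C to 11.1 CPM on MGm160930B.

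P2ry6 was called lower only at 72 h, with LPS_hi (median 3.39 CPM, 0 to 15.8, n = 13) and IFNa (3.59 CPM, 0 to 28.4, n = 7), against 14.6 CPM untreated (0.689 to 31.4). The changes were -1.54 (SE 0.32, adjusted p = 2.5e-05) and -1.50 (SE 0.40, adjusted p = 0.0039), and both groups overlapped with the untreated one. The call with LPS_hi was lost with library pool as a term. In untreated cultures P2ry6 also differed between plates, with 24 h medians per plate from 12.3 CPM (lot May16) to 43.4 CPM (lot Feb15).

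Adora2a and Adora2b rose with LPS and P3C. Adora2a had 0 to 2.08 CPM in untreated 24 h cultures and 9.16 to 45.1 CPM, median 21.4, in the 18 LPS_hi cultures, with no overlap. The change was 3.93 (SE 0.19, adjusted p = 3e-70). With LPS_lo 6 of 7 cultures had 8.78 to 17.5 CPM and the remaining one 0.353 CPM (2.92, SE 0.28). The 6 P3C cultures had 10.8, 8.86, 2.00, 17.6, 26.6 and 104 CPM, all but 1 above every untreated culture (3.61, SE 0.30). No other stimulus was called for Adora2a at 24 h.

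Adora2b was called with 5 stimuli at 24 h. It had 0 to 7.94 CPM in untreated 24 h cultures with a median of 1.18. LPS_hi gave 9.0 to 107 CPM with a median of 29.5 (change 3.97, SE 0.28, adjusted p = 7.7e-38), LPS_lo a median of 19.6 CPM (3.59, SE 0.41) and P3C 33.8, 19.2, 13.3, 13.7, 22.9 and 11.9 CPM (3.10, SE 0.43). Neither the LPS_hi nor the P3C cultures overlapped with the untreated ones. GMCSF gave a median of 22.2 CPM over a range of 1.83 to 43.0 (2.69, SE 0.38, n = 8, adjusted p = 5.4e-09), and TNFa a median of 6.37 CPM (1.83, SE 0.41, n = 7, adjusted p = 0.00064). Both overlapped with untreated cultures. Of all genes, 16.2% were called with LPS_hi, 15% with LPS_lo, 20.1% with P3C, 8.99% with IC, 11.1% with IFNa, 7.27% with IFNb, 8.06% with IFNg, 2.98% with TNFa, 2.12% with GMCSF and 1.77% with TGFb.

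**Figure D2:**
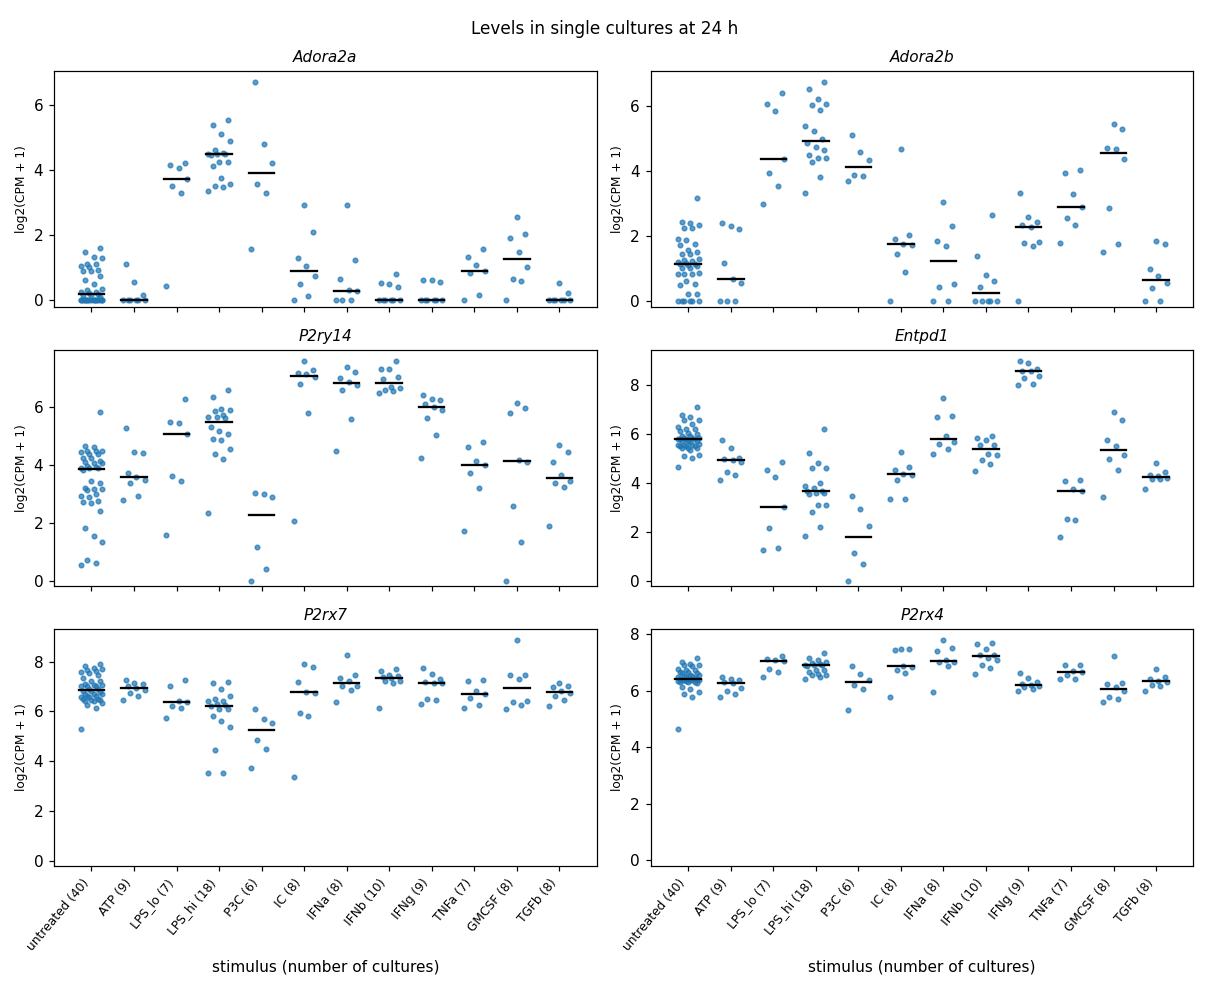
Levels in single cultures at 24 h, as log2(CPM + 1), for untreated cultures and 11 stimuli, with 1 dot per culture, a bar at the group median and the number of cultures in brackets. The 18 LPS_hi cultures stand above all 40 untreated cultures for Adora2a and Adora2b, the 9 IFNg cultures for Entpd1 and the 10 IFNb cultures for P2ry14.

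At 72 h the untreated medians of both genes were 0 CPM, with highest values of 0.574 CPM for Adora2a and 8.65 CPM for Adora2b. Adora2b was highest with TNFa + PGE2, at 10.1 to 42.0 CPM with a median of 30.7 in 8 cultures, all above every untreated culture. The change was 4.29 (SE 0.40, adjusted p = 3.4e-22). GMCSF gave a median of 17.6 CPM (3.46, SE 0.42, n = 7), and the 3 IL4 cultures had 8.41, 7.73 and 23.98 CPM (3.19, SE 0.61, adjusted p = 3.7e-05). IL4 + IL10 + IL13 gave 6.26 CPM (1.99, SE 0.45), P3C + PGE2 13.9 CPM (2.89, SE 0.42) and TNFa + IFNg 10.5 CPM (2.77, SE 0.40). LPS_hi, LPS_lo and P3C changed it by 2.06, 1.96 and 1.44, and TNFa + P3C, alone, with PGE2, or with PGE2 and IFNb, by 1.60, 2.31 and 1.81. The P3C call was lost with library pool as a term and the TNFa + P3C call under the exact rank-sum test.

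Adora2a was called at 72 h with LPS_hi (median 0.510 CPM, 0 to 10.9, change 1.15), LPS_lo (1.26 CPM, 0 to 8.79, 1.45), P3C (4.55 CPM, 0 to 14.3, 2.20), TNFa + P3C (7.37 CPM, 2.31), TNFa + P3C + PGE2 (3.05 CPM, 1.83) and TNFa + PGE2 (1.24 CPM, 1.48). All of these groups held cultures at 0 and overlapped with the untreated cultures. Adora3 was called with IL10 alone, at 0 to 1.06 CPM beside 0 to 14.7 CPM untreated (-1.35, SE 0.43, adjusted p = 0.0406), a call that was lost with no filter and without cultures under 2 M reads. At 72 h the share of all genes called was 16% with LPS_hi, 8.1% with LPS_lo, 7.38% with P3C, 6.88% with P3C + PGE2, 15.5% with TNFa + P3C, 9.6% with TNFa + P3C + PGE2, 9.88% with IFNb added to these, 8.51% with TNFa + PGE2, 9.96% with TNFa + IFNg, 4.55% with GMCSF, 3.57% with IL4, 7.39% with IL4 + IL10 + IL13, 3.65% with IL10, 7.48% with IFNa, 4.45% with IFNb and 12.8% with IFNg.

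ATP itself, the ligand of the P2X channels and the substrate of CD39, called none of the 9 genes at 24 h, where 0.88% of all genes were called. Entpd1 had 16.7 to 52.8 CPM in the 9 ATP cultures with a median of 30.2, beside 54.3 CPM untreated. The change was -0.94 (SE 0.34, 95% interval -1.61 to -0.26, adjusted p = 0.161), and an exact rank-sum test of this gene alone gave p = 1.5e-05 without adjustment. Of the 9 ATP cultures, 3 lay below every untreated culture and the others within the untreated range, and the change was under the minimum fold. Nt5e had a median of 1.17 CPM beside 0.0402 CPM (0.64, SE 0.23, adjusted p = 0.16), and P2rx7 differed by -0.01 (95% interval -0.58 to 0.56). The 95% intervals were -0.59 to 0.07 for P2rx4, -0.21 to 1.14 for P2ry6, -0.63 to 1.42 for P2ry14 and -0.83 to 0.60 for Adora2b. A doubling of P2rx4, which is far from 0, lies outside its interval.

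At 4 h the ATP cultures can be set beside CCL2 and CCL7 cultures of the same time, since no untreated culture was labelled 4 h. Adora2b was 8.47, 18.5, 12.6, 13.1 and 2.22 CPM in the 5 ATP cultures. In the 7 CCL7 cultures it ranged from 0 to 3.02 CPM with a median of 1.54, and in the 7 CCL2 cultures from 0.148 to 5.70 CPM with a median of 1.47. The lowest ATP culture was the only one on plate MGm161010A and overlapped with both groups, while the other 4 stood above both. The change was 2.44 against CCL7 (SE 0.58, adjusted p = 0.005, 2.56% of all genes called) and 2.15 against CCL2 (SE 0.58, adjusted p = 0.0178, 2.69% called). Against CCL2 the call was lost without ATP culture 2 or ATP culture 4, and against CCL7 without cultures under 2 M reads.

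No other of the 9 genes was called with ATP at 4 h. P2rx7 had 38.8, 58.5, 122, 27.9 and 108 CPM, against medians of 102 CPM with CCL7 and 135 CPM with CCL2, for changes of -0.71 (SE 0.46, adjusted p = 0.466) and -1.06 (SE 0.46, adjusted p = 0.203). P2ry6 differed from CCL2 by -0.94 (adjusted p = 0.381), and by -1.44 (adjusted p = 0.024) with culture plate as a term. Endothelial markers summed to a median of 163 CPM in the ATP cultures, beside 30.4 CPM with CCL7 and 38.4 CPM with CCL2, and their part in these differences was not tested.

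LPS_hi at 4 h moved 6 of the 9 genes against CCL7, in comparisons added after the values were seen. Over all 15 such comparisons, 29 of 135 pairs were called, which is 21.5% beside 6.3% over all genes. Because these comparisons were picked with the values known, the higher share among the 9 genes is no result about them. Adora2a had 35.6 to 92.0 CPM in the 7 LPS_hi cultures and 0 to 2.23 CPM with CCL7, a change of 4.68 (SE 0.36, adjusted p = 1.9e-31). Adora2b differed by 3.03 (SE 0.53), although 1 LPS_hi culture had 0.247 CPM, and P2ry14 by 2.30 (SE 0.76, adjusted p = 0.0162). P2rx7 had 2.81 to 94.2 CPM with LPS_hi and 30.8 to 238 CPM with CCL7 (-2.42, SE 0.42, adjusted p = 4.1e-07). Entpd1 (-1.61, SE 0.50) and P2ry6 (-1.31, SE 0.50, adjusted p = 0.0422) were also lower. Of all genes, 18.7% were called in this comparison, and the median of all genes was -0.29. Against CCL2 the same genes except P2ry14 were called, with 25.5% of all genes. Set against untreated cultures of 24 h, where stimulus and time cannot be told apart, 8 of 54 pairs at 4 h were called, beside 7.13% over all genes. They were Adora2b with ATP (2.22, SE 0.47, 4.26% of all genes called), 5 genes with LPS_hi (29.3%), and Adora2b and Nt5e with norepinephrine (6.27%). The Nt5e call was lost under the exact rank-sum test.

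ATP added to LPS_hi for 4 h lowered Adora2a. The 6 cultures with both had 10.2, 12.6, 23.2, 34.4, 23.6 and 12.2 CPM, and the 7 with LPS_hi alone 48.1, 41.9, 51.6, 92.0, 47.2, 64.3 and 35.6 CPM. The groups did not overlap, although the highest of the one lay next to the lowest of the other. The change was -1.51 (SE 0.38, adjusted p = 0.0066, 1.85% of all genes called), and it missed the threshold at a pseudocount of 0.5. Adora2b had 23.5 to 47.0 CPM with ATP and 0.247 to 41.8 CPM without (1.21, SE 0.55, adjusted p = 0.368). None of the other 7 genes was called. The summed inflammatory response genes Tnf, Il1b, Nos2 and Ptgs2 had medians of 13800 CPM with ATP and 18994 CPM without, and their relation to Adora2a was not tested.

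Norepinephrine, which acts on adrenergic receptors, also moved Adora2b at 4 h. Its 7 cultures had 0 to 16.6 CPM with a median of 9.97, for a change of 2.00 against CCL7 (SE 0.53, adjusted p = 0.0166, 1.88% of all genes called) and 1.72 against CCL2 (SE 0.53, adjusted p = 0.0414, 3.22% called). Added to LPS_hi, it raised Adora2b to 48.3 to 102 CPM in 8 cultures, above every culture with LPS_hi alone (2.20, SE 0.51, adjusted p = 0.0031, 1.39% called). Entpd1 rose as well, to a median of 54.2 CPM from 19 CPM (1.68, SE 0.48, adjusted p = 0.0374), with overlap. Of the 2 chemokines, Nt5e was called against CCL2 alone, at a median of 2.61 CPM beside 0 CPM (1.09, SE 0.34, adjusted p = 0.0419). The groups overlapped, at 0 to 7.79 CPM with norepinephrine and 0 to 1.36 CPM with CCL2. The comparisons of norepinephrine with CCL7 and CCL2 were added after the values were seen.

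**Figure D3:**
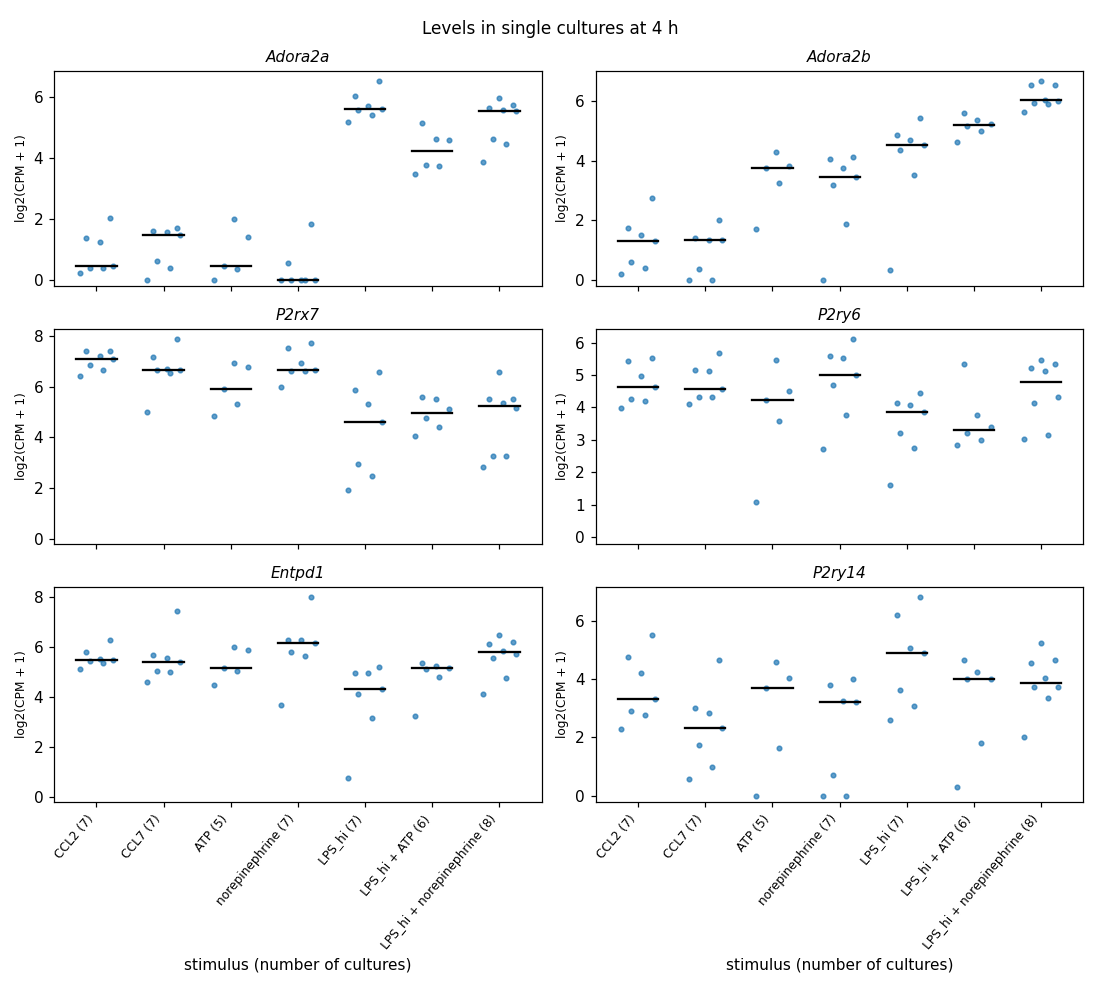
Levels in single cultures at 4 h, as log2(CPM + 1), for 7 groups of 5 to 8 cultures, with 1 dot per culture, a bar at the group median and the number of cultures in brackets. Of the 5 ATP cultures 4 stand above all CCL2 and CCL7 cultures for Adora2b, and the LPS_hi + ATP cultures lie below all LPS_hi cultures for Adora2a.

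Agents added to LPS at the same dose and time were compared with LPS alone in 19 groups. Of 171 pairs, 11 were called, 3 higher and 8 lower, which is 6.43% beside 1.16% over all genes (0.54% higher and 0.622% lower). IFNg added to LPS_lo for 72 h raised Entpd1 to 96.6 to 366 CPM from 7.19 to 36.9 CPM, with no overlap (3.47, SE 0.45, adjusted p = 1.9e-11, 2.5% of all genes called). IL10, IL4 and TGFb are cytokines known to restrain inflammation. Added to LPS_lo for 72 h, IL10 and TGFb lowered both Adora2a and Adora2b, while with IL4 only Adora2a was called lower. Adora2b was 0.629, 0.318, 0.864, 0 and 0 CPM with IL10, below all 11 LPS_lo cultures at 1.15 to 11.2 CPM (-2.03, SE 0.53, adjusted p = 0.0149, 2.34% called) and lost the call without replicate 4 or replicate 5, where cultures of the same number were left out of all groups of 2 to 5 cultures at once. TGFb gave 0 to 3.53 CPM (-1.94, SE 0.46, adjusted p = 0.0023, 2.92% called).

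Adora2a was listed at 0 in all 5 cultures with LPS_lo + IL10 and in all 5 with LPS_lo + IL4 + IL10 + IL13, and was called lower in both (adjusted p = 0.0062 and 0.0018), beside 0 to 8.79 CPM with LPS_lo alone. It was lower with TGFb (0 to 1.11 CPM, -1.25, SE 0.31, adjusted p = 0.0052) and with IL4 (0 to 1.15 CPM, -1.29, SE 0.37, adjusted p = 0.0254, 1.88% called), the latter lost under the exact rank-sum test, without cultures under 2 M reads and without replicate 2, 3, 4 or 5. P2ry14 had a median of 3.78 CPM with LPS_lo + IL4 + IL10 + IL13 and 29.2 CPM with LPS_lo (-2.73, SE 0.76, adjusted p = 0.0109, 5.13% called), and lost the call with plate as a term, where the change was -1.90, without cultures under 2 M reads and without replicate 3 or 5. In these IL4, IL10, IL13 and TGFb groups every called gene overlapped with LPS_lo alone except Adora2b with IL10.

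PGE2, whose receptors include ones that raise cyclic AMP, was combined with P3C or TNFa at 72 h, and these comparisons were added after the values were seen. P3C + PGE2 had 105 to 308 CPM of P2rx7 in 7 cultures, above all 6 P3C cultures at 3.81 to 89.6 CPM (2.31, SE 0.44, adjusted p = 2.7e-05, 4.23% of all genes called). Entpd1 was higher (median 30.9 beside 3.10 CPM, 2.03, SE 0.52, adjusted p = 0.0049) and Adora2a lower (median 0 beside 4.55 CPM, -2.05, SE 0.38, adjusted p = 1.3e-05). Adora2b differed by an amount that was not called, and was called with plate as a term. Summed microglia markers had medians of 4328 CPM with P3C + PGE2 and 2708 CPM with P3C, and their part was not tested.

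TNFa + PGE2 had 10.1 to 42.0 CPM of Adora2b and PGE2 alone 0 to 3.48 CPM, with no overlap (3.58, SE 0.50, adjusted p = 2.4e-10, 8.85% of all genes called). Entpd1 had a median of 3.87 CPM with both and 98.4 CPM with PGE2 alone (-3.32, SE 0.46, adjusted p = 3.7e-10), and P2ry14 18.5 and 1.59 CPM (2.99, SE 0.71, adjusted p = 0.00084). Adora2a, listed at 0 in all 8 PGE2 cultures, reached 11.1 CPM with both and was called higher. GMCSF exceeded IL4 at 24 h in Adora2b (median 22.2 beside 2.82 CPM, 1.71, SE 0.46, adjusted p = 0.0094) and Adora2a (1.15), with 4.75% of all genes called, and both were lost with plate as a term. TNFa + IFNg exceeded IFNg alone in Adora2b (median 10.5 beside 0.239 CPM, 2.81, SE 0.54, adjusted p = 3.2e-05, 5.48% called).

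**Figure D4:**
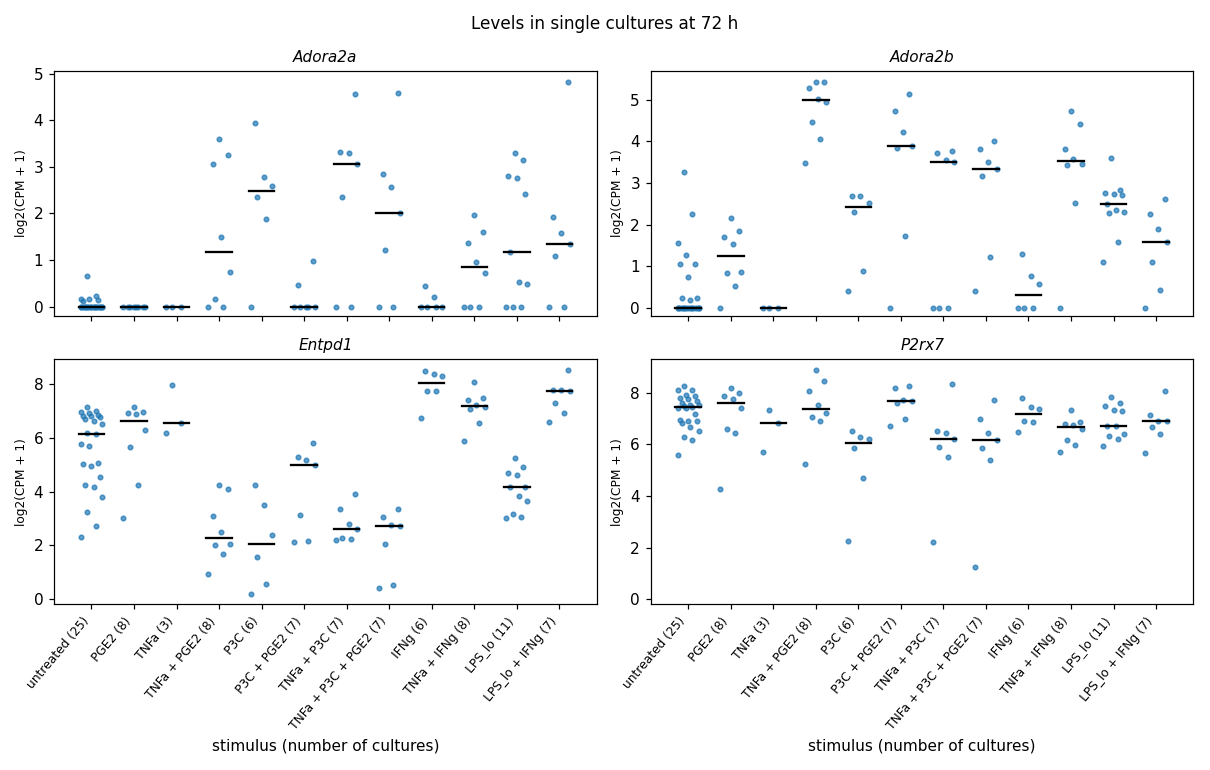
Levels in single cultures at 72 h, as log2(CPM + 1), for untreated cultures and 11 stimuli or mixtures, with 1 dot per culture, a bar at the group median and the number of cultures in brackets. The TNFa + PGE2 cultures stand above all PGE2 cultures for Adora2b, and the P3C + PGE2 cultures above all P3C cultures for P2rx7.

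Whether a stimulus acted differently at 72 h and 24 h was tested for 25 stimuli, after values had been seen, as the 72 h change minus the 24 h change. Among all pairs of the 9 genes with the 25 stimuli, 11 were called, beside 3.25% of the pairs over all genes and the same stimuli. Because these tests were chosen with the values known, the count is no result about the 9 genes as a set. Adora2a with LPS_hi changed by 3.93 at 24 h and 1.15 at 72 h, a difference of -2.78 (SE 0.30, adjusted p = 5.5e-16). Adora2b with LPS_hi differed by -1.91 (SE 0.44), Adora2a with LPS_lo by -1.47 (SE 0.37) and with P3C by -1.41 (SE 0.43), and P2ry14 with IC by -3.66 (SE 0.85, adjusted p = 0.0016). These changes of Adora2a and Adora2b with LPS and P3C were smaller at 72 h, and that of P2ry14 with IC was -0.68 there and not called. Entpd1 with TNFa differed by 3.96 (SE 0.68, adjusted p = 6.3e-07) and Adora2b with TNFa by -2.30 (SE 0.73), where the 72 h arm was 3 cultures on 1 plate, with 253, 94.5 and 72.5 CPM of Entpd1. P2ry6 (-1.24) and P2ry14 (-2.05) with LPS_hi, Nt5e with PGE2 (-1.16) and Entpd1 with s100B (1.73, SE 0.53, adjusted p = 0.0328) were the remaining pairs, and the first 3 of them were lost with plate as a term. Time points were cultured on different plates, so time and plate cannot be fully told apart. Every 72 h group came from 1 cell lot, while the untreated 24 h cultures came from 3. Time and lot therefore cannot be fully told apart in these differences either. These differences were not refitted without the 9 untreated 24 h cultures.

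Untreated cultures themselves differed between the times in P2ry6, at medians of 14.6 CPM at 72 h and 28.7 CPM at 24 h (-1.03, SE 0.24, adjusted p = 0.00025, 7.33% of all genes called). The call was lost without cultures under 2 M reads and without the 9 untreated 24 h cultures named above (-0.97), and with plate as a term the sign turned (0.75, adjusted p = 0.775). The fit with plate as a term called Entpd1 lower at 72 h instead (-2.97, SE 0.81, adjusted p = 0.0298). Without that term Entpd1 differed by -0.26 (SE 0.24, adjusted p = 0.497). All 72 h untreated cultures were of lot May16, and the 24 h untreated cultures of that lot, 8 on 1 plate, had a median of 12.3 CPM.

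Of 37 other genes of extracellular purine signalling, 23 were tested in cultures. Beside them, 16.2% of all genes were called with LPS_hi, 20.1% with P3C, 7.27% with IFNb and 8.06% with IFNg at 24 h. With LPS_hi, 5 of the 23 were higher and 7 lower, led by Cd38 (4.62, SE 0.30), an NAD-consuming ectoenzyme, the nucleoside transporter Slc28a2 (3.23, SE 0.28) and the ADP receptor P2ry13 (-3.04, SE 0.40). With P3C, 3 were higher and 7 lower, and P2ry13 fell by 4.08 (SE 0.62). IFNb raised 5 and lowered 3, with Enpp4 (3.57, SE 0.38), Pnp (2.63, SE 0.18), a purine nucleoside phosphorylase, and Slc28a2 (2.54, SE 0.35) in front. IFNg raised 5 and lowered 2, among them Bst1 (2.49, SE 0.38) up and the nucleotide pyrophosphatase Enpp1 (-2.51, SE 0.37) down.

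With ATP none of the 23 was called at 24 h. At 4 h the ADP receptor P2ry1 was called lower with ATP against CCL7 (-2.13, SE 0.59) and CCL2 (-2.39, SE 0.59). P2ry13 was called lower against CCL2 (-2.71, SE 0.83). That is 4.35% of the 23 against CCL7 and 8.7% against CCL2, beside 2.56% and 2.69% of all genes. Both genes were also called lower with norepinephrine and with LPS_hi at 4 h against either chemokine, in comparisons added after the values were seen. ATP added to LPS_hi changed 1 of 23, the nucleoside transporter Slc29a3, by 2.14 (SE 0.48, adjusted p = 0.0015). IL4 raised P2ry1 by 2.52 (SE 0.34) at 24 h, with 2.75% of all genes called.

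Across the 97 group means, Adora2a and Adora2b correlated at 0.795 and Adora2a and P2rx7 at -0.745. The groups share plates and cell lots, so these are descriptions. The profile most like that of Adora2a was Il6 (Pearson r = 0.933), followed by Traf1 (0.932) and Il12b (0.922). For Adora2b the nearest were Cdc42ep2 (0.864), Zc3h12a (0.833) and Cxcl3 (0.819), for P2rx7 Tmem86a (0.83), Abl1 (0.81) and Wipf1 (0.793), and for Entpd1 Serpinb6b (0.792), Havcr2 (0.736) and Rhoh (0.709). P2ry14 was nearest to Zmat2 (0.763), Ifi203 (0.75) and Dusp28 (0.741), and P2ry6 to Gatm (0.734), Prune2 (0.733) and Clec16a (0.724). P2rx4 (0.614, Ccr3), Nt5e (0.647, RP23-458A10.4) and Adora3 (0.466, Gm22395) had no near neighbour above 0.65.

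In microglia taken from mice, 5 of the 9 genes passed the filter, P2rx4, P2rx7, P2ry6, Adora3 and Entpd1, and here a gene was called at an adjusted p under 0.05. The mouse and culture tables were normalized separately, so levels are only set side by side. Entpd1 had a median of 488 CPM in mice and 38.8 CPM in cultures, Adora3 56.8 and 1.48 CPM, P2rx7 435 and 116 CPM, and P2rx4 49.2 and 98.0 CPM. P2ry14 had 3.60 CPM in mice, and Adora2a, Adora2b and Nt5e had medians of 0.189, 0.269 and 1.44 CPM.

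Injected LPS lowered P2rx7. The 4 PBS mice had 449, 509, 699 and 561 CPM and the 4 LPS mice 423, 339, 477 and 279 CPM, so that 1 LPS mouse lay above the lowest PBS mouse. The change was -0.56 (SE 0.18, adjusted p = 0.0374), beside 22.4% of all genes called and a median of -0.19 over all genes. The call was lost under median-ratio scaling, with no filter, without the trend, at a minimum fold of 1 and without any 1 of 5 mice (LPS replicates 2 and 4, PBS replicates 2 to 4), and an exact rank-sum test gave p = 0.0571, where 0.0286 is the smallest possible. P2rx4 (0.33, SE 0.17, adjusted p = 0.17) and P2ry6 (0.34, SE 0.17, adjusted p = 0.174) were not called. Adora3 differed by 0.04 (95% interval -0.35 to 0.42) and Entpd1 by 0.05 (-0.21 to 0.31), which excludes a halving of Entpd1 at 4 h in these mice.

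P2ry14 did not pass the filter and was not tested in the fit. It had 4.24, 4.55, 9.45 and 8.35 CPM in LPS mice and 2.75, 0.866, 2.57 and 3.48 CPM in PBS mice. These values lie near the filter limit of 5 CPM, which 2 of the 4 LPS mice exceeded. They did not overlap, but how many of all genes separate these groups was not counted, so the gap is only a description. Adora2a had 0.257, 2.00, 1.30 and 2.61 CPM with LPS and 0.196, 0, 0.594 and 0 CPM with PBS, and Adora2b 1.03, 1.64, 4.82 and 5.56 CPM with LPS and 1.18, 0, 0.198 and 1.45 CPM with PBS. Both overlapped. Of 18 other purine genes tested, 1 was higher and 4 lower, which is 27.8% of them and near the 22.4% of all genes, with P2ry2 at 3.10, Cd38 at -1.21 and the microglial ADP receptor P2ry12 at -0.80. Neutrophil markers summed to 179 to 328 CPM in LPS mice and 81.8 to 149 CPM in PBS mice, with 4 of 5 tested markers called higher, and 3 of 4 monocyte markers were called higher and Ccr2 lower. Their part in these values was not tested.

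Between 2 and 22 months none of the 5 genes was called, beside 3.24% of all genes. The libraries fall into 2 ranges of library numbers with mice of both ages, 8 mice in the first and 16 in the second, and these stood apart. Entpd1 had 230 to 395 CPM in the first and 429 to 597 CPM in the second, P2ry6 11.4 to 38.6 and 42.0 to 81.6 CPM, and P2rx7 224 to 358 and 375 to 566 CPM, with no overlap. Over all mice, P2rx4 had medians of 49.9 and 52.3 CPM (0.22, 95% interval -0.06 to 0.49, adjusted p = 0.539), P2rx7 430 and 399 CPM (-0.10, -0.40 to 0.21) and Entpd1 487 and 490 CPM (-0.10, -0.43 to 0.23). Adora3 (-0.08, -0.30 to 0.13) and P2ry6 (0.00, -0.56 to 0.57) were not called either. Within the first range Entpd1 differed between ages by -0.30 (SE 0.15, adjusted p = 0.492), P2rx7 by -0.27 (SE 0.13, adjusted p = 0.494) and P2rx4 by 0.47 (SE 0.21, adjusted p = 0.45). Within the second range the values were -0.06 (SE 0.08) for Entpd1, -0.06 (SE 0.09) for P2rx7 and 0.12 (SE 0.12) for P2rx4. With the range as a term the SE of Entpd1 fell from 0.16 to 0.07, its change was -0.14 (adjusted p = 0.235), and still none of the 5 genes was called. Of 17 other purine genes tested, P2ry12 alone was called, at -0.47 for 22 months, which is 5.88% of them. Neutrophil markers summed to medians of 1185 CPM at 22 months and 578 CPM at 2 months, and the T cell marker Trbc2 was higher (2.15). Their part in these values was not tested.

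**Figure D5:**
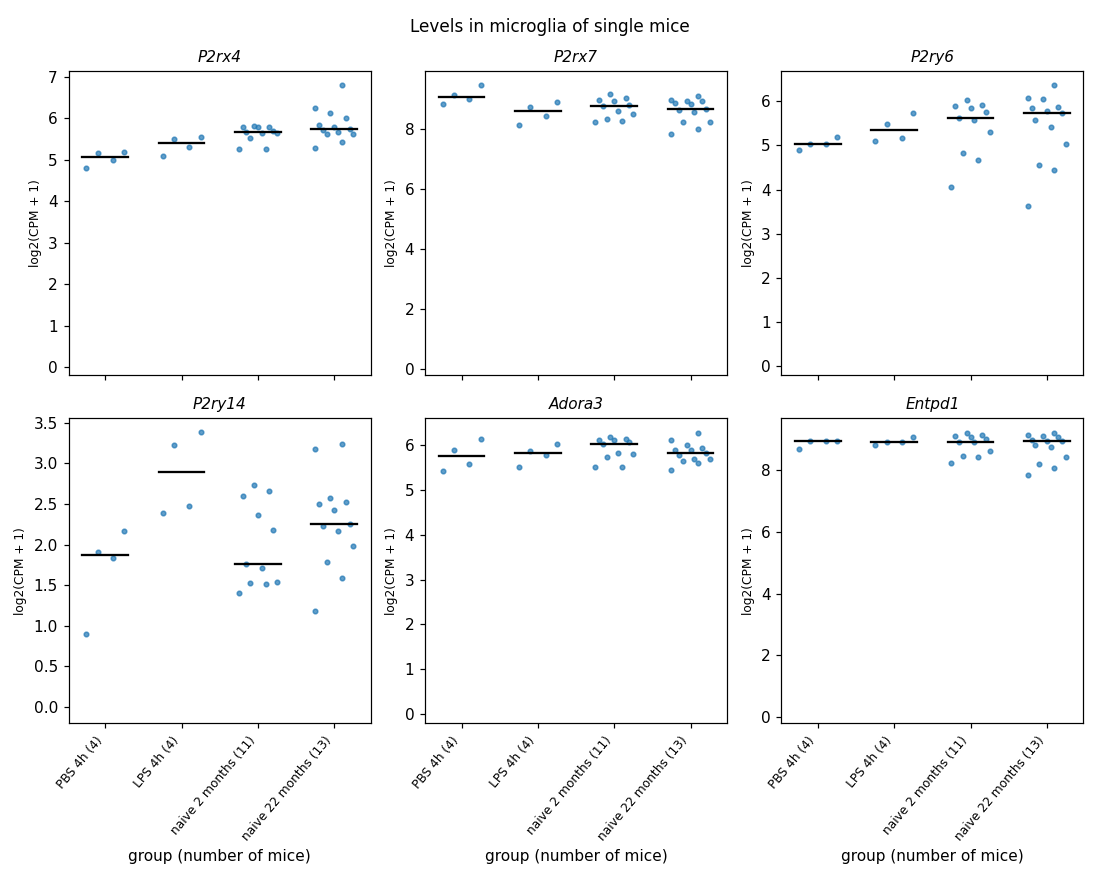
Levels in microglia of single mice, as log2(CPM + 1), for 4 groups, with 1 dot per mouse, a bar at the group median and the number of mice in brackets. P2rx7 lies lower in LPS than in PBS mice with overlap, and the age groups overlap for all 6 genes. P2ry14, which was near the filter limit and not tested, lies higher in LPS than in PBS mice without overlap.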

How the data were processed

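The authors sequenced 3′-end libraries made after linear RNA amplification, assigned reads to Ensembl transcripts with Salmon, summed them per gene and deposited CPM, read counts scaled to the mapped reads of each library, with no correction for length. They had dropped samples under 1 M mapped reads or with few genes detected. The methods mention no molecular identifiers for the amplified reads. Per the labels, groups were taken from stimulus, dose, time and age. The deposited CPM could not be turned back into whole reads, so no count model was used.

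CPM were analysed as log2(CPM + 1) with limma 3.58.1 in R 4.3.3 (empirical Bayes with a trend). Genes above 5 CPM in at least 4 cultures were kept, and in at least 4 mice for LPS and 11 for aging. All 783 cultures of 97 groups entered 1 fit, and p-values were adjusted by the Benjamini-Hochberg method over all genes of a comparison. A call needed an adjusted p under 0.05 and, for cultures, also a fold of 1 or more in size on the log2 scale. Intervals are 95% intervals of the fit. Rank-sum tests were exact and two-sided. The methods were tested on simulated data.

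The 9 genes, the list of 37 other purine genes and the marker lists were chosen with earlier results of these data known. All 9 genes are described, the 3 largest called changes of the other purine genes are named for a comparison, and 3 genes of nearest profile are given for each of the 9. The 15 comparisons between stimuli and the 25 tests of 72 h against 24 h were chosen after values were seen. Promoters came from RefSeq on GRCm38.p6, and positions from GENCODE on GRCm38. No 2 samples held identical values.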

Additional observations from a re-analysis of the deposited data

Results flagged for a closer look

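Of 97 pairs of a gene and a group of 4 to 10 samples that were tested, 13 had a value that stood apart from the rest of the group by Dixon's criterion, which chance alone meets in about 1 of 20. Among the ATP groups, Adora2a was 1.175 CPM in 24 h ATP culture 3, while the other cultures had 0 to 0.472 CPM, and Entpd1 was 8.256 CPM in 4 h LPS_hi + ATP culture 3, with 26.5 to 39.5 CPM in the others. Adora2b was 0.247 CPM in 4 h LPS_hi culture 6, while the others had 10.3 to 41.8 CPM. P2ry14 was 3.184 CPM in 24 h IC culture 5 (others 53.9 to 189 CPM). Adora2a was 0.353 CPM in 24 h LPS_lo culture 7 (others 8.78 to 17.5 CPM) and 2.557 CPM in 4 h norepinephrine culture 2 (others 0 to 0.474 CPM). Entpd1 was 172.614 CPM in 4 h CCL7 culture 6 (others 22.9 to 50.3 CPM). At 72 h, Adora2a was 1.145 CPM in LPS_lo + IL4 culture 1, with the others listed at 0. LPS_lo + TGFb culture 3 had 1.113 CPM of Adora2a and 3.525 CPM of Adora2b. Adora2b was listed at 0.0 CPM in TNFa + IFNg culture 8 (others 4.76 to 25.3 CPM), and P2rx7 was 1.341 CPM in TNFa + P3C + PGE2 culture 7 (others 41.5 to 208 CPM). In mice, Entpd1 was 408.552 CPM in PBS mouse 1 (others 489 to 497 CPM).

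The change against untreated cultures differed between 72 h and 24 h for 11 pairs of gene and stimulus, by limma's test of the difference. They are among all pairs of 9 genes with 25 stimuli, beside 3.25% of pairs called over all genes. These tests were chosen after values were seen, so the count is no result about the 9 genes as a set. The 72 h minus 24 h differences were -3.66 for P2ry14 with IC, -2.78 for Adora2a, -1.91 for Adora2b, -2.05 for P2ry14 and -1.24 for P2ry6 with LPS_hi, -1.47 for Adora2a with LPS_lo, -1.41 for Adora2a with P3C, -1.16 for Nt5e with PGE2, -2.30 for Adora2b and 3.96 for Entpd1 with TNFa, and 1.73 for Entpd1 with s100B. Those of P2ry6 and P2ry14 with LPS_hi and of Nt5e with PGE2 missed the threshold with culture plate as a term.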

How the results depend on the processing

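Of 85 called pairs of gene and comparison, 67 kept their direction and their side of the threshold under every alternative run, and 18 did not in at least 1. The 85 pairs leave out the 15 comparisons between stimuli and the 25 tests of 72 h against 24 h. For these only culture plate as a term is given, with which 26 of the 29 calls in the 15 comparisons were kept. Aging mice and 24 h ATP cultures gave 0 called members under all alternatives run for them. For ATP added to LPS_hi the count of called members went from 1 to 0 at a pseudocount of 0.5. For 4 h ATP against CCL7 it went to 0 without cultures under 2 M reads. Against CCL2 it was 2 with culture plate as a term (P2ry6 added), 2 by the exact rank-sum test (P2rx7 added), and 0 to 1 when 1 culture was left out. For agents added to LPS it was 17 by the exact rank-sum test and 8 to 11 when the culture of 1 replicate number was left out of every group of 2 to 5 cultures at once, against 11. For untreated 72 h against 24 h it was 2 with no minimum fold and 0 without cultures under 2 M reads and without the 9 untreated 24 h cultures of plates MG160831 and MG160901, and the P2ry6 difference turned to 0.75 with culture plate as a term. With that term the count stayed at 1, as Entpd1 was called in place of P2ry6. For LPS mice it was 0 with no filter, without the trend, at a minimum log2 fold of 1 and by the exact rank-sum test, and 0 to 1 when 1 mouse was left out, and median-ratio scaling exchanged P2rx7 for P2rx4. The cause of these changes was not tested. Leaving out 1 IC culture, and 3 or 9 untreated 24 h cultures, were alternatives chosen after seeing the data. Median-ratio scaling moved the median of all genes by over 0.1 in 7 of 115 comparisons, and the share of calls that were higher rose from 16% to 25.8% with P3C at 24 h, from 28.4% to 47.1% with LPS_hi against CCL7 at 4 h and from 39.3% to 65.4% in LPS mice. No paired analysis was possible because the labels give no replicate numbers that pair samples across groups. Culture plate was fitted as a term in comparisons of cultures, library pool in some of them and the range of library numbers in aging mice. Depth limits the genes near 0, which were listed at 0 in 430 (Adora2a), 458 (Nt5e), 178 (Adora2b) and 126 (Adora3) of 784 cultures.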

Other observations

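A single 72 h culture was labelled LPS_hi with the dose of LPS_lo and entered no comparison. It had 196.7 CPM of P2rx7, 60.1 CPM of P2ry14, 8.23 CPM of Adora2b and 11.7 CPM of Entpd1, and Adora2a was listed at 0.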
